A study of Homo sapiens with 4 samples.

Results

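Ephrins and Eph receptors were examined in Caco-2 cells, a line from a human colon carcinoma that differentiates toward enterocytes in culture. The members were chosen by symbol, as 5 ephrin genes (EFNA1, EFNA3, EFNA4, EFNA5 and EFNB2) and 5 Eph receptor genes (EPHA1, EPHA2, EPHA4, EPHB2 and EPHB3), and all 10 had a row among the 37515 genes counted. EFNA1 had been picked because of its fall in these same libraries, so the members' changes are given as a description with no test. The 4 RNA-seq libraries were 2 of unstimulated cells at 0 h and 2 of cells given 60 ng/ml IFNγ in the basal compartment for 3 h, all from wild-type cells grown on transwell filters for 15 days beforehand. IFNγ and the 3 h that passed cannot be told apart in this design, and nothing in the labels says whether the 2 libraries of a group came from separate cultures. The p-values given for other genes therefore measure only the spread between these libraries, which may be technical.

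Ephrins are ligands held on the cell surface, the A class by a lipid (GPI) anchor and the B class by a transmembrane segment, and Eph receptors are the receptor tyrosine kinases that bind them on neighboring cells. Signals can run in both directions, forward into the cell with the receptor and in reverse into the cell with the ephrin. In the intestine, EPHB2 and EPHB3 are known as receptors of the crypt whose opposing B ephrins are higher toward the villus, and this gradient keeps cells in their positions. EPHA2 and its ligand ephrin-A1, encoded by EFNA1, sit at contacts between epithelial cells.

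The libraries held 7171455 to 10365346 counts, and levels are given as CPM, a count scaled by the TMM-adjusted size of its library. A level of 1 CPM corresponded to 7.14 to 10.3 counts. Of 10 IFNγ-induced genes used to check the labels, 8 were called higher after IFNγ and 0 lower, and all 10 had a positive log2 fold change. Of 13 intestinal epithelial markers, 12 had at least 10 counts in every library and CDX1 had at most 5. Leukocyte markers summed to 3.89 and 5.32 CPM in unstimulated cells and to 7.0 and 9.69 CPM after IFNγ, with PTPRC at 0, 0, 2 and 0 counts, and their part in the results was not tested. PECAM1, used as an endothelial marker, and COL1A1, used as a fibroblast marker, were at 91.4 to 119 CPM and 89.4 to 179 CPM, and PDGFRB, another fibroblast marker, had 52 and 30 counts before IFNγ and 54 and 68 after. CDH5 and COL1A2 had at most 2 counts.

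The ligand gene EFNA1 fell steeply, 2 other A-class ligand genes fell with it, and the receptor gene EPHA2 and the ligand gene EFNB2 rose. Of the 10 members, 9 passed the filter on low counts. Of these 9, 2 met the call rule in the upward direction (EFNB2 and EPHA2) and 3 in the downward direction (EFNA1, EFNA3 and EFNA4), the rule being a Benjamini-Hochberg adjusted p-value under 0.05 in edgeR and an absolute log2 fold change above 1. Over all 14820 tested genes 7.28% were called, 2.88% higher and 4.40% lower, and since the members were chosen with this contrast in view nothing is read from their count. The median log2 fold change of the 9 was -0.01, the same as over all tested genes, because falls and rises were both present.

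**Figure D1:**
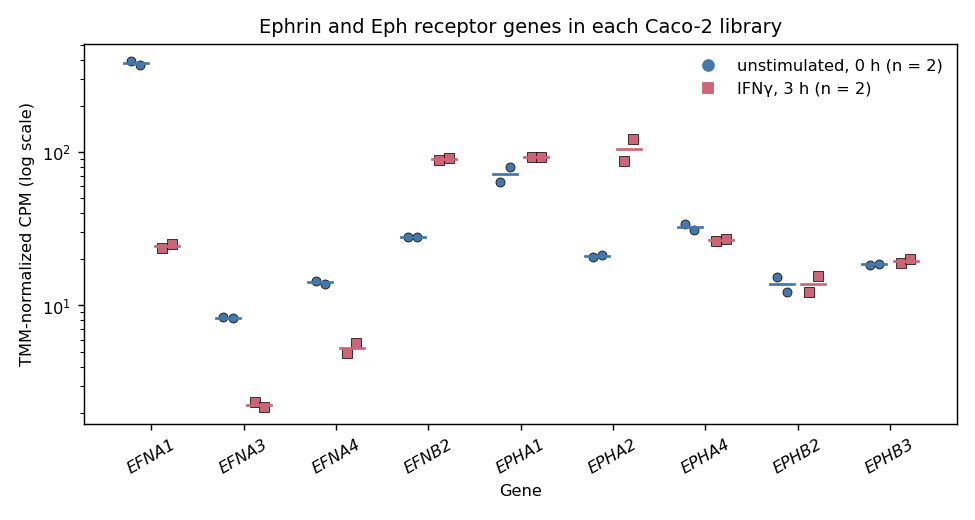
TMM-normalized CPM (log axis) of 9 ephrin and Eph receptor genes in each Caco-2 library, with circles for the 2 unstimulated libraries, squares for the 2 libraries after 3 h of IFNγ, and lines for group means. EFNA1 sits near 379 CPM before and 24.5 CPM after, while EFNB2 and EPHA2 move upward, and EFNA5 (at most 1 count) is not drawn.

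EFNA1 (ENSG00000169242) encodes ephrin-A1 and was by far the most abundant member before stimulation. It had 390.3 CPM (4008 counts) and 367 CPM (2620 counts) in the unstimulated libraries, and 23.8 CPM (245 counts) and 25.1 CPM (184 counts) after IFNγ. Both libraries after IFNγ lay far below both unstimulated ones. The log2 fold change was -3.95 ± 0.13 (SE), a 15.5-fold lower level, and it was -4.02 and -3.86 in the same-numbered pairs of libraries. Among the 14820 tested genes only 1 had a lower log2 fold change, since EFNA1 ranked 2 from the lowest. As these are bulk libraries, fewer cells with the transcript and less transcript per cell cannot be told apart.

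EFNA3 (ENSG00000143590), the gene of another GPI-anchored ligand, was low from the start and fell further. Its levels were 8.37 and 8.27 CPM in unstimulated cells and 2.33 and 2.18 CPM after IFNγ, the latter from 24 and 16 counts. The groups did not overlap. The log2 fold change was -1.87 ± 0.27 (SE), 3.66-fold lower.

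EFNA4 (ENSG00000243364) encodes ephrin-A4 and had 14.5 and 13.9 CPM in unstimulated cells. After IFNγ it had 4.86 and 5.73 CPM, from 50 and 42 counts. The groups again did not overlap, and the log2 fold change was -1.43 ± 0.21 (SE), 2.69-fold lower. Its change was -1.53 and -1.24 in the 2 pairs, in each pair smaller in size than that of EFNA3.

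EFNA5, the gene of the remaining A-class ligand among the members, had 0, 0, 0 and 1 counts. With a limit of 3 counts for a count of 0, or 0.292 to 0.42 CPM in these libraries, a change was not detectable at this depth. This limit covers counting error only.

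EFNB2 (ENSG00000125266), a transmembrane ligand that binds EPHB receptors and EPHA4, went the other way. It had 27.8 and 27.9 CPM in unstimulated cells and 88.4 and 91.1 CPM after IFNγ. The 2 libraries of each group were close to each other and the groups were far apart. The log2 fold change was 1.69 ± 0.12 (SE), a 3.23-fold higher level.

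EPHA2 (ENSG00000142627), a receptor for ephrin-A1 and other A-class ligands, rose most among the members. Its levels were 20.6 and 21.3 CPM in unstimulated cells and 87.3 and 121 CPM after IFNγ, so the 2 stimulated libraries differed from each other but both were above the unstimulated ones. The log2 fold change was 2.31 ± 0.18 (SE), a 4.96-fold higher level, and it was 2.07 and 2.49 in the pairs. EPHA2 ranked 76 from the highest of the 14820 tested genes and EFNB2 ranked 163.

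The other A-class receptor genes moved little. EPHA1 (ENSG00000146904), whose protein also binds ephrin-A1, had 63.5 and 80.0 CPM in unstimulated cells and 93.2 and 93.2 CPM after IFNγ. Its groups did not overlap, but the gap was smaller than the distance between the 2 unstimulated libraries, and the log2 fold change was 0.38 ± 0.14 (SE). EPHA4 (ENSG00000116106), a receptor that can bind ligands of both classes, had 34.1 and 31.1 CPM before and 26.4 and 27.0 CPM after, with a log2 fold change of -0.29 ± 0.14 (SE).

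The crypt receptor genes EPHB2 and EPHB3 showed no such change. EPHB2 (ENSG00000133216) had 15.4 and 12.2 CPM in unstimulated cells and 12.2 and 15.6 CPM after IFNγ, so the groups overlapped, and its log2 fold change was -0.01 ± 0.21 (SE). EPHB3 (ENSG00000182580) had 18.4 and 18.6 CPM before and 18.9 and 20.2 CPM after, with a log2 fold change of 0.08 ± 0.15 (SE). In all, 8 of the 9 tested members had groups that did not overlap, which 62.4% of all tested genes did as well.

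**Figure D2:**
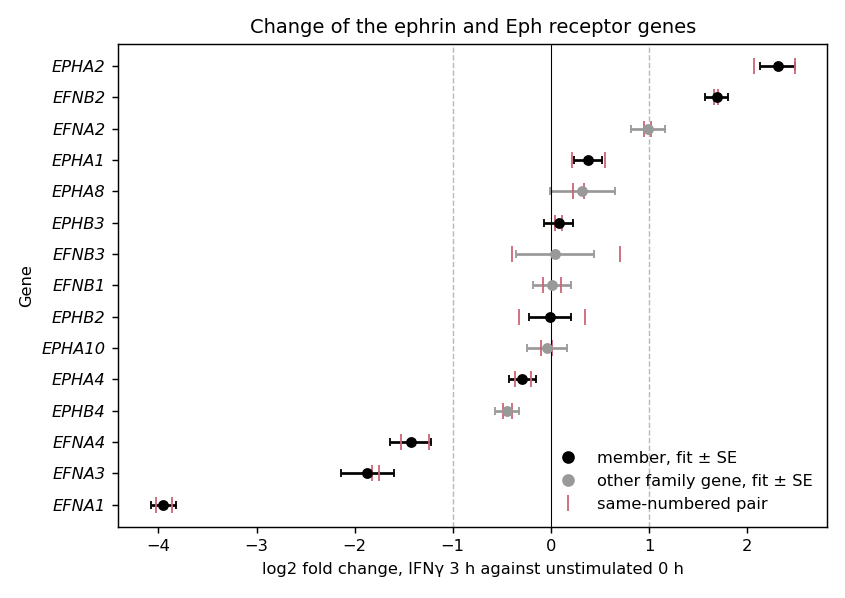
Log2 fold change (IFNγ 3 h against unstimulated 0 h) of the tested family genes, with points and bars for the edgeR estimate ± SE, red ticks for the 2 same-numbered pairs, and dashed lines at 1 and -1. EFNA1 lies at -3.95 and EPHA2 at 2.31, while EPHB2 lies at -0.01 with pairs on both sides of 0.

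Levels were set against each other per length, as CPM per kb of annotated exon. On this scale EFNA1 was at 175 in unstimulated cells (mean of 2 libraries), with EPHA1 next among all 22 ephrin and Eph genes at 15.3. EPHB4 at 14.7 and EFNA2 at 12.0, neither of them members, followed, and EPHA1 and EPHB4 overlapped between libraries. EFNA4 was at 11.3, and its libraries overlapped those of EFNA2. EFNB2 was at 5.56 and EPHA2 at 5.06, and EPHA4, EFNA3 and EPHB3 lay between 4.09 and 4.31. EPHB2 was lower, at 1.10, with 12516 exon bases against 4530 for EPHB3. In CPM EPHB2 and EPHB3 were closer, at means of 13.8 and 18.5. Levels per length depend on the length used, which takes all annotated exons of a gene together.

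After IFNγ the order was different. EPHA2 came first at 25.2, with libraries at 21.1 and 29.2 that overlapped those of EFNA2 (mean 23.9). EPHA1 at 19.8 and EFNB2 at 17.9 followed, and EFNA1 ranked 5 at 11.3. EPHB3 at 4.31 and EFNA4 at 4.21 did not differ beyond their spread, EPHA4 was at 3.53, and EFNA3 (1.16) and EPHB2 (1.11) overlapped.

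The level of EFNA1 per length was 36.2 and 33.0 times that of EPHA2 in the unstimulated libraries. After IFNγ the ratio was 0.522 and 0.397, so the receptor transcript was the more abundant of the 2 in both stimulated libraries. The level of EFNB2 was 0.364 and 0.393 times that of EPHB4, a receptor known to pair with ephrin-B2, before IFNγ and 1.64 and 1.70 times after it. These ratios describe the same values as above and carry no test.

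**Figure D3:**
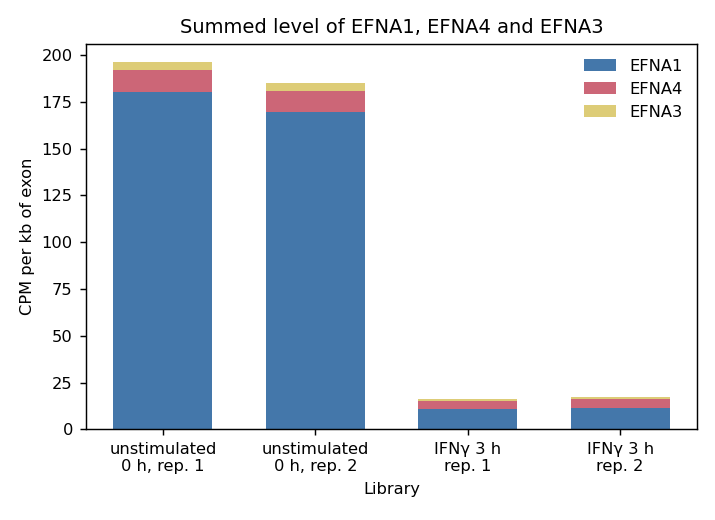
Stacked level of EFNA1, EFNA4 and EFNA3 in each library, in CPM per kb of exon from 0. The summed level was 196 and 185 in unstimulated cells and 16.1 and 17.3 after IFNγ, and EFNA1 makes up most of every bar.

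EFNA1 provided 91.9% and 91.7% of the summed level per length of EFNA1, EFNA3, EFNA4 and EFNA5 in the unstimulated libraries. After IFNγ this was 68.5% and 67.0%, and the share of EFNA4 went from 5.89% and 5.97% to 24.1% and 26.3%. EFNA4 itself fell, so its larger share came with a smaller sum. The sum leaves out EFNA2, whose level per length was below that of EFNA1 in both unstimulated libraries and above it in both libraries after IFNγ.

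The 3 members that fell are neighbors on chromosome 1. In GENCODE 44 mapped to GRCh37, EFNA4 spans 155036213 to 155042029, EFNA3 spans 155051313 to 155060014 and EFNA1 spans 155100352 to 155107375, all on the plus strand, with 40338 bases from the end of EFNA3 to the start of EFNA1. The genes on either side were read from the same fit. ADAM15, which encodes a membrane metalloproteinase and lies before EFNA4, changed by 0.20 on the log2 scale (edgeR adjusted p = 0.365). SLC50A1, which encodes a sugar transporter and begins 445 bases after EFNA1, changed by -0.04 (edgeR adjusted p = 0.821). Of the 8 neighboring genes that are not ephrins, 6 were tested and 0 were called higher or lower by edgeR or DESeq2, with 1 (DPM3) at an unadjusted edgeR p-value under 0.05, and DESeq2 gave no adjusted p-value for DCST2, KRTCAP2 and MUC1. Their log2 fold changes ran from -0.96 (DCST2, with 2 to 26 counts per library) to 0.80 (MUC1). Beside them, 7.28% of all tested genes were called, and 20.0% had an edgeR adjusted p-value under 0.05. The lowest such value among the 6 was 0.0732, in DPM3. DPM3, KRTCAP2 and MUC1 had 11 to 93 counts per library, which limits what could be seen in them, and DCST1 and TRIM46 had too few counts to be tested.

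**Figure D4:**
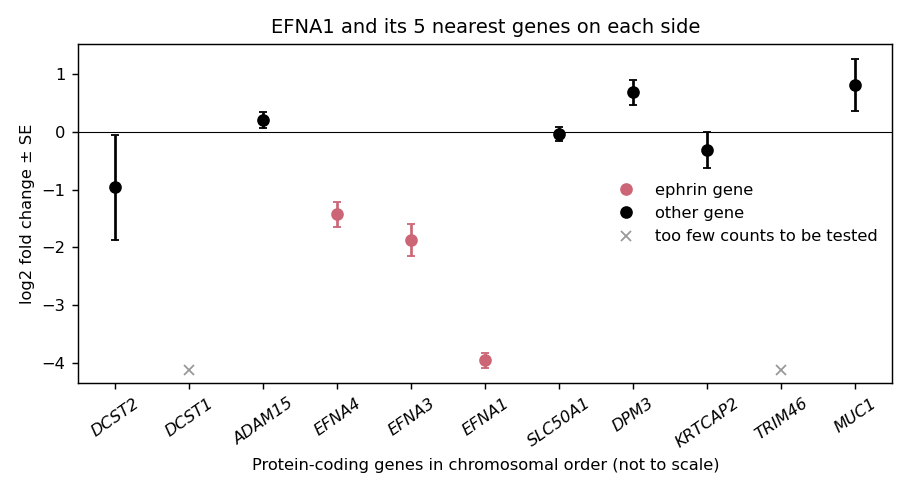
Log2 fold change ± SE of EFNA1 and its 5 nearest protein-coding genes on each side, in chromosomal order and not to scale, with ephrin genes in red and crosses at the lower edge for genes with too few counts. The 3 ephrin genes lie at -1.43, -1.87 and -3.95, and the next gene on either side lies at 0.20 and -0.04.

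An annotated read-through transcript, EFNA4-EFNA3, lies on the same strand and covers 43.9% of the exon bases of EFNA3 and 15.0% of those of EFNA4. It has no row among the genes counted, so its reads cannot be told from those of EFNA3 and EFNA4. The levels of EFNA3 and EFNA4 are uncertain to that extent. A gene on the opposite strand (ENSG00000284966), also without a row, covers 36.4% of the exon bases of EFNB2. Smaller opposite-strand overlaps cover 4.7% of the exon bases of EPHA4, 1.7% of those of EPHA1 and 0.3% of those of EPHB2. How the counting treated strand is not given in the sources used here, so these genes and EFNB2 are uncertain to that extent. Exons of EFNA1 and EPHA2 overlap no other annotated gene.

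The promoters of the 5 members that met the call rule are shown because these genes moved in opposite directions. Each window is from RefSeq on GRCh38.p14, a different build from the gene spans above, and runs 5′ to 3′ from 250 bases before the start of the gene to 50 after it, with matches to any searched motif in capitals.
EFNA1, chr1:155127626-155127925, plus strand: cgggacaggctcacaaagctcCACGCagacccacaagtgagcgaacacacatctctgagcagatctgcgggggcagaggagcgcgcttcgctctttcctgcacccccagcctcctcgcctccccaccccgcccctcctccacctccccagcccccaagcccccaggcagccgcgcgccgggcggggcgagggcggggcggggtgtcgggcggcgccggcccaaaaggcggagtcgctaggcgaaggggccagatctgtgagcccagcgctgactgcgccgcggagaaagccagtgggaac
EFNA3, chr1:155078587-155078886, plus strand: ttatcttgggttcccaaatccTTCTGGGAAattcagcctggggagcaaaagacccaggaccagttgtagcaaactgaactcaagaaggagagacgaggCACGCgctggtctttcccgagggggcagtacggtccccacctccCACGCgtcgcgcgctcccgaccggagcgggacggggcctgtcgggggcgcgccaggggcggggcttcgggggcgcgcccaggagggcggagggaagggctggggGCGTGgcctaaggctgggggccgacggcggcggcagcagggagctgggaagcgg
EFNA4, chr1:155063490-155063789, plus strand: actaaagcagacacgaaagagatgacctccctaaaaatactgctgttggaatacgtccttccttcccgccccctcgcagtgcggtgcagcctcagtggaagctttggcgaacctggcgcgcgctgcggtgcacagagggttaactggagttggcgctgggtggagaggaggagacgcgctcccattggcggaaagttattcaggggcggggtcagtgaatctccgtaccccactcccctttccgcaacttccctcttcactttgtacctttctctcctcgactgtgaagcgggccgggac
EFNB2, chr13:106535613-106535912, minus strand: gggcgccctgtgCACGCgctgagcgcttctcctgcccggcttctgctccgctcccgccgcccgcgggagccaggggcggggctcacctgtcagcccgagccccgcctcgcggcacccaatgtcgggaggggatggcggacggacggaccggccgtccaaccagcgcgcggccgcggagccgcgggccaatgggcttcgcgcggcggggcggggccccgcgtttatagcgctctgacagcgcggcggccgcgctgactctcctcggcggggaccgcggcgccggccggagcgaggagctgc
EPHA2, chr1:16156020-16156319, minus strand: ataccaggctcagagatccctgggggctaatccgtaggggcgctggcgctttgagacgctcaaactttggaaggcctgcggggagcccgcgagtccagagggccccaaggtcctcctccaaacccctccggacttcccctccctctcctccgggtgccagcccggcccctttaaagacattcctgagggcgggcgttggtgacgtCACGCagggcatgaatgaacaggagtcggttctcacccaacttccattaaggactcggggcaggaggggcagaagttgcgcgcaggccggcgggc

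Motifs were searched on both strands as TTCNNNGAA (GAS), GAAA, any 2 bases and GAAA (ISRE), CTTTGAT (TCF/LEF), GCGTG and ACGTG (cores of hypoxia response elements) and TGANTCA (AP-1). All 10 members were found in the table, with 12 windows among them. GCGTG, which reads CACGC on the other strand, was in 1 place in EFNA1 (bases 22 to 26 of the window), 1 in EFNB2 and 1 in EPHA2 and in 3 places in EFNA3. It was in 7 of the 10 members, or 8 of their 12 windows, where those of EPHB2 nearly coincide. Of 35116 windows of the same length 36.5% had it, so its presence is common. Each match named below was in 1 window of its gene. A GAS match was in 1 member, EFNA3 (bases 22 to 30), and in 7.66% of all windows. An ISRE match was in 1 member, EPHA4 (3.57% of all windows), and ACGTG was in EPHA4 and EPHB3 (21.4% of all windows). TCF/LEF and AP-1 letters were in 0 of the 10 members, and in 2.62% and 7.71% of all windows. None of the 6 letter strings was in the window of EFNA4.

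The other 12 genes of the family were counted as well. Of these, 6 had enough counts to be tested, and 0 were called higher or lower at the full rule by edgeR or DESeq2. DESeq2 gave no adjusted p-value for EFNB3 and EPHA8. An unadjusted edgeR p-value under 0.05 was seen in 2, a share not given for all tested genes. At an adjusted one under 0.05, 1 rose and 1 fell, beside 20.0% of all tested genes in either direction. EFNA2, which encodes a further GPI-anchored ligand, had 26.0 and 32.4 CPM in unstimulated cells and 52.8 and 62.9 CPM after IFNγ. Its groups did not overlap, and its log2 fold change was 0.99 ± 0.17 (SE, edgeR adjusted p = 0.00751), just under the fold change threshold. EFNA2 thus lay on the opposite side of 0 from EFNA1, EFNA3 and EFNA4.

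EPHB4, a receptor of ephrin-B2, had 98.0 and 91.3 CPM before and 69.5 and 69.0 CPM after, a log2 fold change of -0.45 ± 0.12 (SE, adjusted p = 0.0343 from edgeR). At an adjusted p-value under 0.05 with no fold change threshold, which 20.0% of all tested genes passed, EFNA2 rose and EPHB4 fell. EFNB1 (0.01), EFNB3 (0.04), EPHA8 (0.32) and EPHA10 (-0.04) did not pass, with adjusted p-values from edgeR of 0.541 to 0.975. The genes EPHA5, EPHA6, EPHA7, EPHB1 and EPHB6 had at most 11 counts in any library, and EPHA3 had 0 and 0 counts before and 6 and 4 after.

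Genes that act on or downstream of ephrins and Eph receptors were examined in 5 lists. The lists were chosen with earlier results of these data known, so nothing is read from their counts of called genes. The first held proteases and ubiquitin ligases that cleave or turn over these proteins. Of its 14 tested genes 0 were called by edgeR or DESeq2, against 7.28% of all tested genes. An unadjusted edgeR p-value under 0.05 was seen in 3, a share not given for all tested genes. At an adjusted one under 0.05, 2 fell and 0 rose, beside 20.0% of all tested genes in either direction. Its genes with the largest change were CBLB, a ubiquitin ligase of receptor tyrosine kinases (log2 fold change -0.98, adjusted p = 0.01 from edgeR), and ADAM10, the metalloproteinase known to cleave ephrins (-0.50, adjusted p = 0.0228 from edgeR), and both passed at an adjusted p-value alone. After removal of a GC and length trend, a setting added after the data were seen, ADAM10 turned direction, to 0.17 ± 0.15 (SE), and CBLB was at -0.58 ± 0.16 (SE).

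Of 33 tested genes for kinases, adaptors and exchange factors, 4 fell and 0 rose at the full rule, beside 4.40% and 2.88% of all tested genes. These were VAV3, a guanine nucleotide exchange factor (log2 fold change -1.36, adjusted p = 0.0123 from edgeR), GRB7, an adaptor (-1.16, 0.00405), RASA1, a Ras GTPase activating protein (-1.11, 0.0144), and ROCK1, a kinase that acts on the actomyosin cytoskeleton (-1.07, 0.00797). The call of ROCK1 ended with the same trend removed, at a log2 fold change of -0.45, and that of RASA1 ended too, at -0.93. Both calls also ended without replicate 2 after IFNγ, at -0.85 for ROCK1 and -0.84 for RASA1. The median of the list was -0.09 against -0.01 over all tested genes.

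Of 14 tested phosphatases and PDZ partners, 1 rose, PTPN1, a tyrosine phosphatase (log2 fold change 1.36, adjusted p = 0.00127 from edgeR), and 0 fell, beside 2.88% and 4.40% of all tested genes. Of 14 tested crypt base and Wnt target genes, the class to which EPHB2 and EPHB3 are often assigned, 3 rose and 0 fell, beside the same 2.88% and 4.40% of all tested genes, and the median log2 fold change was 0.08. They were MYC (2.87, adjusted p = 0.000287 from edgeR), AXIN2 (1.16, 0.00931) and SOX9 (1.06, 0.00464). LGR5, the stem cell marker, had 14 to 31 counts per library and a value of -0.36 (edgeR adjusted p = 0.623). SOX9 was no longer called with the GC and length trend removed (0.93) or without unstimulated replicate 1 (0.91). Without replicate 2 after IFNγ only MYC of the 3 was called, with AXIN2 at 0.98 and SOX9 at 0.91.

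Of 8 tested genes for adherens and junction partners, 1 rose, the gap junction gene GJB2 (log2 fold change 2.17, adjusted p = 0.0288 from edgeR), which had 6 and 4 counts before and 19 and 26 after, and 0 fell, beside 2.88% and 4.40% of all tested genes. DESeq2 gave it no adjusted p-value, it was not tested at a minimum of 10 counts in every library, and its call was lost in 3 of the 4 fits that left out a library. CDH1, which encodes E-cadherin, changed by 0.23 on the log2 scale (edgeR adjusted p = 0.172). All 8 log2 fold changes were above 0, as were those of 49.4% of all tested genes, and the median was 0.34 against -0.01 over all tested genes.

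**Figure D5:**
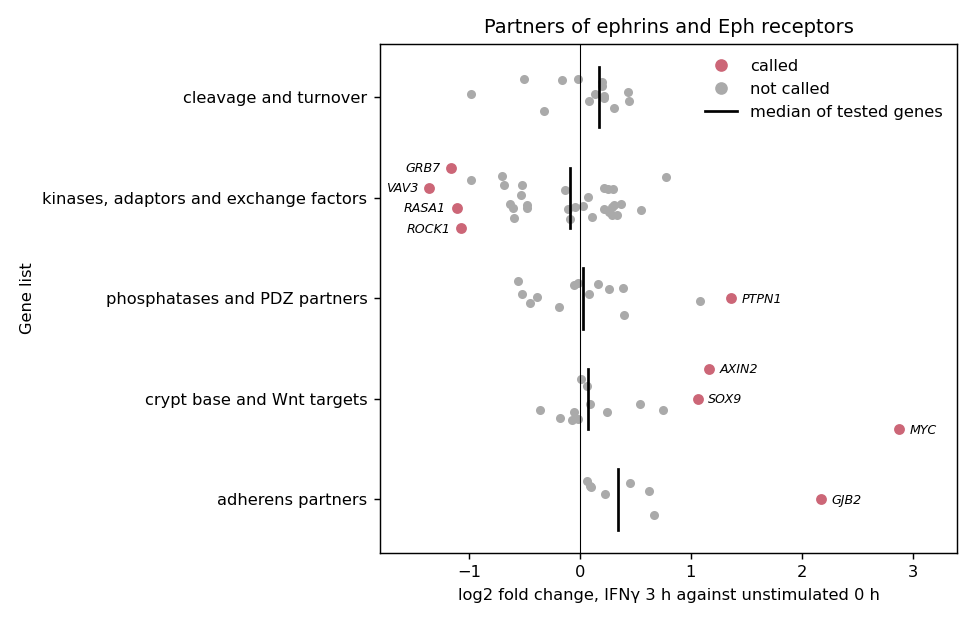
Log2 fold change of the tested genes in 5 lists of ephrin and Eph partners, with called genes in red and named, other genes in gray, and black lines at the median of each list. The 4 called genes among kinases, adaptors and exchange factors lie below -1, and MYC lies farthest up at 2.87.

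The genes most like EFNA1 over the 4 libraries were found among 9839 other tested genes with a mean of at least 10 CPM, by the Euclidean distance of log2 CPM values centred on the unstimulated mean. FAM13A was nearest (distance 0.68, log2 fold change -3.48), and KLHL24 (1.51, -2.89), FAM200C (1.67, -2.84), HILPDA (1.84, -2.68) and TMCC1 (1.88, -2.62) followed. With 4 libraries in 2 groups this likeness reflects mostly the size of the fall.

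Transcripts richer in GC had higher log2 fold changes over 14518 tested genes (Spearman correlation of 0.431, across genes, which are not independent replicates). The transcripts of the falling ephrins had a GC content of 54.6% (EFNA1), 61.8% (EFNA3) and 58.2% (EFNA4), all above the median of 47.9%, and that of EFNA2 was 64.3%. With the trend removed the changes were -4.13, -2.10 and -1.62 for the 3 genes that fell, 1.63 for EFNB2, 2.11 for EPHA2 and 0.75 for EFNA2. The falls of the 3 ephrin genes were thus larger without the trend.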

How the data were processed

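RNA-seq was done on 4 libraries of Caco-2 cells, and the table that the authors deposited holds read counts for each Ensembl gene, not normalized. The submitters' processing notes name HISAT 0.5.1 and HTSeq 0.6.1p1, while the genome build, annotation and strand setting are not given in the sources used here. Symbols were paired with 96.5% of the 37515 identifiers. Low genes were dropped by filterByExpr with its defaults, libraries were scaled by TMM, and edgeR 4.0.16 (R 4.3.3) was used for the quasi-likelihood test over 14820 genes. The SE of each change was its size over the root of the F statistic, and pairs used log2 CPM with a prior count of 2. Exon lengths were the union of exons in GENCODE 44 mapped to GRCh37, and the GC content was that of the longest transcript. The fits were also run on simulated counts that held no GC trend and no shared deviation of replicates, which checks the code only. The members and gene lists were chosen with earlier results of these data known. Members therefore carry no p-values, and those of list genes are given as a description. Named genes were all members, tested family genes, called genes of each list or the 2 with the largest change, neighbors of EFNA1 and the 5 genes most like it. Of the lists, LGR5 and CDH1 were named outside this rule. The alternatives were other scalings, filters and thresholds, DESeq2 1.42.0, a replicate block and each library left out. The removal of a GC and length trend by loess (span 0.3) was added after the data were seen. Precision was limited by the 2 libraries per group.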

Additional observations from a re-analysis of the deposited data

How the results depend on the processing

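The counts of members called, 2 higher and 3 lower, were the same under every alternative run. The log2 fold change of EFNA1 ran from -4.13 to -3.91 and that of EPHA2 from 2.11 to 2.35 over the settings that kept all libraries. With each library left out in turn, EFNA1 ran from -4.01 to -3.91, EFNA3 from -1.93 to -1.85, EFNA4 from -1.56 to -1.32, EFNB2 from 1.65 to 1.71, EPHA1 from 0.22 to 0.57, EPHA2 from 2.04 to 2.52, EPHA4 from -0.34 to -0.22, EPHB2 from -0.21 to 0.17 and EPHB3 from 0.01 to 0.12, the lone library of a group being taken to vary like the others. EPHB2 and EPHB3 were the members whose sign changed under some setting. EFNA5 was too low for a value in the main test.

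With the GC and length trend removed, the log2 fold change was -4.13 for EFNA1, -2.10 for EFNA3, -1.62 for EFNA4, 1.63 for EFNB2, 0.15 for EPHA1, -0.11 for EPHA4 and -0.13 for EPHB3. The number of all genes called lower was then 313 against 652, and of kinases, adaptors and exchange factors called lower 2, and 426 were called higher against 427. EFNB2 was 1.73 with upper quartile scaling and 1.65 with library size only. With upper quartile scaling 477 genes were called higher and 586 lower.

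At an adjusted p-value alone, 1337 genes were called higher and 1626 lower, with 1 other family gene higher and 1 lower, 2 cleavage and turnover genes lower, 1 kinase or adaptor gene higher and 10 lower, 1 phosphatase or PDZ partner lower, 5 crypt and Wnt genes higher and 3 adherens partners higher. At an adjusted p-value under 0.01, 382 genes were called lower, with 2 kinase or adaptor genes lower and 0 adherens partners higher. Other family genes called higher numbered 1 with upper quartile scaling and 2 without a filter on low counts. With library size only 1 cleavage and turnover gene (CBLB) was called lower. With a minimum of 10 counts in every library, which removed GJB2, and with DESeq2, which gave GJB2 no adjusted p-value, 0 adherens partners were called. The cause of the other differences was not tested.

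Same-numbered libraries deviated together (r = 0.415 across genes), but the labels do not say that a number marks a shared culture, so no pairing was assumed. With the replicate block 492 genes were called higher and 896 lower, and 2 phosphatases or PDZ partners were called higher.

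With each library left out, the number of all genes called lower ran from 554 to 1112, highest without replicate 1 after IFNγ. Over the same fits the number called was 0 to 1 for other family genes higher, 0 to 1 for cleavage and turnover genes lower, 2 to 4 for kinases, adaptors and exchange factors lower, 1 to 3 for crypt and Wnt genes higher and 0 to 1 for adherens partners higher. AXIN2 and SOX9 lost their calls without replicate 2 after IFNγ (0.98 and 0.91), as did RASA1 and ROCK1 (-0.84 and -0.85), and SOX9 also without unstimulated replicate 1 (0.91). GJB2 kept its call only without replicate 1 after IFNγ among these fits. EFNA2 was called without unstimulated replicate 2 (1.17) and without replicate 1 after IFNγ (1.11).

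The summed level of EFNA1, EFNA3, EFNA4 and EFNA5 leaves out EFNA2, also an A-class ligand gene. EFNA1's mean share of this sum was 91.8% before and 67.7% after IFNγ per length. As a share of counts, EFNA1 was at 94.4% before and 76.3% after.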
